A study of Rattus norvegicus with 9 samples.

Results

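The genes described here are 10 genes of the vascular endothelium in rat skeletal muscle: Car4, Rbp7, Kdr, Flt1, Emcn, Pecam1, Cdh5, Tek, Tie1 and Vwf. They were selected by name, and every probe set whose single gene symbol in the platform annotation was one of the 10 was taken. This gave 13 of the 31042 probe sets other than controls, for 9 of the 10 genes. Cdh5, which encodes VE-cadherin, had 0 such probe sets, so it was not analysed here. Car4 was put on the list because its signal was already known to be low with dexamethasone in these same arrays, and the others join it as endothelial genes. The difference between dexamethasone and vehicle is therefore given for these genes as a description, without a test. Of the 13 probe sets, 11 were bright enough to be tested. The second probe set of Car4 and the second of Kdr lay below the intensity limit, at percentiles 25.8 and 15.4 of all probe sets.

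Total RNA of the gastrocnemius, a calf muscle, came from male Wistar rats of 250 g, with 1 Affymetrix rat array for each animal. The 3 animals of the combination group received dexamethasone, a synthetic glucocorticoid, at 0.7 mg/kg/day together with testosterone. For testosterone, the dose stated with each array is 28 mg/kg/day, whereas the description of the design states 20 mg/kg/day, and which is right is not settled here. The 3 animals of the dexamethasone group received the same dose of dexamethasone alone, and the 3 vehicle animals received propylene glycol, the solvent that every group shared. All groups were infused from implanted pumps for 7 days, and no group received testosterone alone. The labels mention no castration, so the animals' own testosterone may have been present in every group. A whole piece of muscle of 20 mg was homogenized, so endothelial transcripts were measured in a mixture with those of muscle fibres and every other cell present. In such bulk samples fewer cells of a type and less RNA per cell cannot be told apart.

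Muscle fibres are wrapped in a dense net of capillaries, whose thin endothelial tubes deliver oxygen and fuel and carry away carbon dioxide. Vascular endothelial growth factor (VEGF) binds Kdr, the main signalling receptor that drives endothelial growth, and Flt1, which binds VEGF tightly with weak kinase activity and can limit what reaches Kdr. Angiopoietins bind Tek, and Tie1 pairs with Tek to modify that signal, which sets vessel stability. Pecam1 and Cdh5 hold neighbouring endothelial cells together, Emcn is a sialomucin of capillary and venous surfaces, and Vwf is the clotting glycoprotein that endothelial cells store. Car4 is a carbonic anhydrase anchored to the outer membrane face of muscle capillaries, where it speeds the exchange of carbon dioxide and bicarbonate. Rbp7 is a cellular retinol binding protein that marks capillary endothelium in several tissues of mice.

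Signals are given as normalized log2(intensity + 16), and a difference of 1 on this scale is a doubling. Levels of different probe sets are not comparable, because each probe set binds with its own efficiency. The deposited signals had medians of 25.8 to 132.1 per array, and normalized arrays correlated with one another at 0.876 to 0.973. Dexamethasone replicate 3 and combination replicate 3 stood apart. The ratio of 3′ to 5′ signal of Gapdh, a measure of RNA integrity, was 6.22 in combination replicate 3 and 4.94 in dexamethasone replicate 3, against 1.06 to 1.17 in the other arrays. Spiked poly-A RNAs, added before labelling, stood at -4.08 and -4.49 log2 units relative to hybridization controls in these arrays, in that order. The other arrays had -0.46 to 2.50. Whether RNA integrity or labelling differed was not tested. The scaling of the deposited signals and the spiked control RNAs split the arrays into 3 technical batches. Batch A held combination replicate 1, dexamethasone replicate 1 and vehicle replicates 1 and 3. Batch B held replicate 2 of each group. Batch C held dexamethasone replicate 3 and combination replicate 3 and no vehicle array. A difference within a batch is thus 1 array minus 1 array or, against vehicle in batch A, 1 array minus the mean of 2. Such a difference has no measure of spread. As a check of treatment, all 6 glucocorticoid-induced genes listed were higher with dexamethasone than with vehicle, with a median of 2.03 log2 units. Of these, 5 (Per1, Klf15, Cebpd, Ddit4 and Tsc22d3) passed the adjusted threshold and Fkbp5 did not. Among all 18625 tested probe sets, 106 passed in the higher direction. In combination minus dexamethasone all 6 were lower, with a median of -1.05, and 0 passed. The brightest probe sets of 6 muscle fibre genes averaged 14.48 to 14.80 in combination arrays, 14.76 to 14.83 in dexamethasone arrays and 14.82 to 14.83 in vehicle arrays, high signals for the genes of the labelled tissue.

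RefSeq promoter sequences (rat build GRCr8) were at hand for 6 of the 10 genes: Car4, Rbp7, Kdr, Flt1, Emcn and Tie1. Those of Car4 and Rbp7 are printed because these genes had the largest lower signals. Those of Kdr and Flt1 are printed because the brightest probe sets of these related receptors differed in sign. Each run holds the 250 bases before the RefSeq start, 5′ to 3′ on the gene's strand. Capitals mark matches to the GC box GGGCGG or its reverse complement CCGCCC, to which SP factors can bind, and to the CACCC box or its reverse complement GGGTG, to which KLF factors can bind. The windows lie at chr10:70325108-70325357 on the plus strand for Car4, chr5:165177400-165177649 on the minus strand for Rbp7, chr14:32571813-32572062 on the plus strand for Kdr and chr12:12333180-12333429 on the plus strand for Flt1.
Car4: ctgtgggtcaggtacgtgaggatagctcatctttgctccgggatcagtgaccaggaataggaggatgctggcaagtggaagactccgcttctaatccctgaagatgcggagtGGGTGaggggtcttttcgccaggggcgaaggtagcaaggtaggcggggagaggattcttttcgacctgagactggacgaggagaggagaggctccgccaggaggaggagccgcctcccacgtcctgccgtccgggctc
Rbp7: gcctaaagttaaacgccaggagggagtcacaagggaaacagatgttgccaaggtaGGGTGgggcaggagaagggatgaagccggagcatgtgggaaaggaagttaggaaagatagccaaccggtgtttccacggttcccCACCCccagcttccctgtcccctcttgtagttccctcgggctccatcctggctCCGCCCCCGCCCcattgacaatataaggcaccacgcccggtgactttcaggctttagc
Kdr: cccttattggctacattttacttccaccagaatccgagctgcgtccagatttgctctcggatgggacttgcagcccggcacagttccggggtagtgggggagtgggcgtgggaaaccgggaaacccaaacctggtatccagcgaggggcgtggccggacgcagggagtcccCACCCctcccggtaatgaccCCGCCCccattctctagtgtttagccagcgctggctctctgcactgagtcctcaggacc
Flt1: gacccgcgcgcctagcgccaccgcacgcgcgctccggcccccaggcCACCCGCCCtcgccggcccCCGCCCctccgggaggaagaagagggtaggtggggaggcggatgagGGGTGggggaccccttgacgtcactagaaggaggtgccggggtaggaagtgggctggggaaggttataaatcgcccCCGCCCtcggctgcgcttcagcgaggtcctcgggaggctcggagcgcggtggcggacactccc
The annotated span of each gene reaches into its own window, so other annotated starts exist. Motifs were searched on both strands in windows of 300 bases, from 250 before to 50 after the start. A CACCC box was found in 5 of the 6 windows, all but that of Emcn, and in 54.9% of the 33469 windows of all genes. A GC box was found in 4 of the 6, those of Rbp7, Kdr, Flt1 and Tie1, and in 33.1% of all. In Flt1 a GC box and a CACCC box share bases, at 201 and 204 bases before the start. The window of Emcn held an ETS motif (CAGGAAG or CTTCCTG, in 12.5% of all windows) and a SOX motif (AACAAT or ATTGTT, in 11.7% of all). The half-site of the glucocorticoid receptor (AGAACA or TGTTCT) was in 0 of the 6 windows and in 20.7% of all, and the full site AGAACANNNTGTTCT in 0 of the 6 and in 0.0149% of all. A match is a description of letters only, and so is the lack of one.

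Car4 had the lowest signals of its range in the dexamethasone muscles and lay between in the muscles that also received testosterone. Its tested probe set read 7.31, 6.62 and 6.91 in combination replicates 1, 2 and 3, 4.46, 4.66 and 6.37 in dexamethasone replicates 1, 2 and 3, and 7.80, 7.94 and 7.65 in vehicle replicates 1, 2 and 3. The 3 groups did not overlap on this probe set, with combination above dexamethasone and below vehicle. The deposited signals behind the lowest values were 3.4 in dexamethasone replicate 1 and 17.9 in dexamethasone replicate 2, close to the bottom of the scale, where the added 16 compresses differences. Dexamethasone replicate 3, the array of batch C, was the highest of its group by a wide gap. The mean was 5.16 ± 1.05 in dexamethasone muscles, against 7.80 ± 0.15 in vehicle muscles (SD, n = 3 each), a difference of -2.64 ± 0.45 (SE), or 6.21-fold lower. Within batch A the dexamethasone minus vehicle difference was -3.27, and within batch B it was -3.28. With a pseudocount of 64 in place of 16 the difference was -1.65, and with 1 it was -3.71.

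With testosterone added, the Car4 mean was 6.95 ± 0.35 in combination muscles, against 5.16 ± 1.05 in dexamethasone muscles (SD, n = 3 each). The difference was 1.79 ± 0.45 (SE), or 3.45-fold higher, with a 95% interval of 0.77 to 2.80. With a pseudocount of 64 it was 1.00, and with 1 it was 2.75. The difference at 16 did not pass adjustment over all probe sets (limma adjusted p = 0.169, unadjusted p = 0.00306). All 3 combination arrays were above all 3 dexamethasone arrays. By batch, the difference was 2.86 in A, 1.96 in B and 0.54 in C. Without dexamethasone replicate 3 it was 2.39 and passed (limma adjusted p = 0.0231). Without both arrays of batch C it was 2.41 and did not pass (limma adjusted p = 0.0511). The dexamethasone arrays that made Car4 of interest also enter this comparison, so it is not independent of that choice. Against vehicle, the combination difference was -0.85 ± 0.45 (limma adjusted p = 0.837), or 1.80-fold lower, with an interval of -1.86 to 0.16. The 3 combination arrays were below the 3 vehicle arrays, and the difference was -0.41 in batch A and -1.32 in batch B.

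The second Car4 probe set did not follow the first. It read 5.09, 6.05 and 5.78 in combination muscles, 4.80, 5.65 and 5.08 in dexamethasone muscles and 4.26, 4.70 and 5.61 in vehicle muscles. These arrays overlapped between all groups, and the correlation between both Car4 probe sets over the 9 arrays was -0.21. The second is dim and was not tested.

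Rbp7 was lower in both treated groups than in vehicle, with tight replicates. Its only probe set read 7.02, 6.97 and 6.64 in combination muscles, 6.39, 6.52 and 6.61 in dexamethasone muscles and 7.73, 7.64 and 7.77 in vehicle muscles. The groups did not overlap, and combination and dexamethasone came closest in batch C, at 6.64 and 6.61. The means were 6.51 ± 0.11 in dexamethasone muscles and 7.72 ± 0.07 in vehicle muscles (SD, n = 3 each), a difference of -1.21 ± 0.18 (SE), or 2.31-fold lower. By batch it was -1.36 in A and -1.13 in B. The combination mean was 6.88 ± 0.21 (SD, n = 3), and its difference from dexamethasone was 0.37 ± 0.18 (SE; limma adjusted p = 0.504), with an interval of -0.03 to 0.77. Within batches A, B and C that difference was 0.63, 0.45 and 0.03. Against vehicle, the combination was 1.79-fold lower, at -0.84 ± 0.18 (limma adjusted p = 0.738, unadjusted p = 0.00103), with -0.73 in batch A and -0.68 in batch B. In that comparison 0 of the 18625 probe sets passed, and 1139 had an unadjusted p under 0.05.

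**Figure D1:**
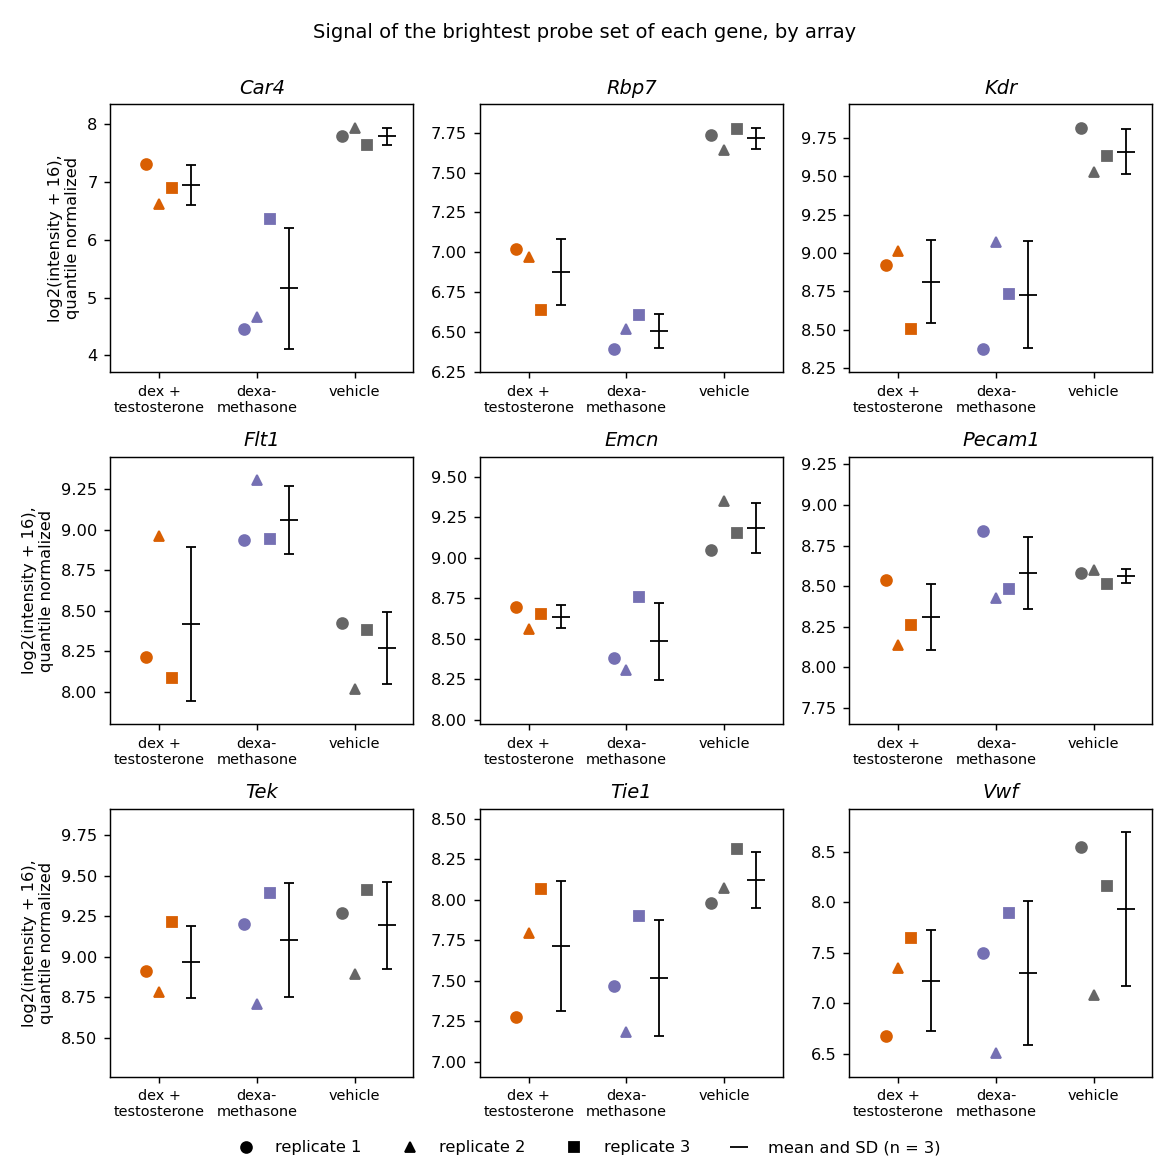
Normalized log2 signals of the brightest probe set of each of the 9 measured genes, 1 panel per gene, with combination, dexamethasone and vehicle from left to right, a point for each array (its shape gives the replicate number) and, beside the points, the group mean with bars of 1 SD (n = 3). Car4 separates into 3 levels, Rbp7, Kdr and Emcn sit lower in both treated groups than in vehicle, Flt1 is highest with dexamethasone, and Pecam1, Tek and Vwf overlap between dexamethasone and vehicle.

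By their brightest probe sets, the VEGF receptors Kdr and Flt1 differed from vehicle in opposite directions in the dexamethasone muscles. Kdr read 8.92, 9.01 and 8.50 in combination muscles, 8.38, 9.07 and 8.73 in dexamethasone muscles and 9.82, 9.53 and 9.63 in vehicle muscles. Every combination array and every dexamethasone array was below every vehicle array, while the treated groups overlapped each other. Between dexamethasone and vehicle the difference was -0.93 ± 0.23 (SE), or 1.91-fold lower. By batch it was -1.35 in A and -0.46 in B. The combination differed from dexamethasone by 0.09 ± 0.23 (limma adjusted p = 0.944), with an interval of -0.44 to 0.61, and it was 1.80-fold lower than vehicle, at -0.85 ± 0.23 (limma adjusted p = 0.802, unadjusted p = 0.00532). Within batches A and B the combination minus vehicle difference was -0.80 and -0.52. The dim second probe set of Kdr overlapped between all groups, at 4.31 to 5.64 in combination, 4.30 to 6.03 in dexamethasone and 4.42 to 5.34 in vehicle muscles, and correlated with the first at 0.03.

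Flt1 was measured by 3 probe sets. The brightest read 8.21, 8.96 and 8.08 in combination muscles, 8.93, 9.30 and 8.94 in dexamethasone muscles and 8.42, 8.02 and 8.38 in vehicle muscles. All dexamethasone arrays were above all vehicle arrays, whereas combination replicate 2 lay among the dexamethasone arrays and the other combination arrays near vehicle. The dexamethasone minus vehicle difference was 0.79 ± 0.26 (SE), or 1.73-fold higher, with 0.53 in batch A and 1.29 in batch B. The combination minus dexamethasone difference was -0.64 ± 0.26 (limma adjusted p = 0.414, unadjusted p = 0.0363), and was -0.72, -0.35 and -0.86 within batches A, B and C. Against vehicle, the combination differed by 0.14 ± 0.26 (limma adjusted p = 0.943), with -0.19 within batch A and 0.94 within batch B. The other Flt1 probe sets did not share this pattern. One read 6.92, 6.68 and 5.25 in combination muscles, 6.44, 7.92 and 4.34 in dexamethasone muscles and 6.38, 7.33 and 7.05 in vehicle muscles. The other read 6.48, 4.90 and 6.58 in combination muscles, 6.19, 7.18 and 6.36 in dexamethasone muscles and 6.04, 5.78 and 6.78 in vehicle muscles. Both overlapped between all groups. The dexamethasone minus vehicle differences were -0.68 ± 0.80 for the first of these and 0.37 ± 0.48 for the other, and the 3 probe sets correlated with one another at only 0.05 to 0.08. Which transcripts of Flt1 each probe set detects was not examined, so the higher Flt1 signal rests on 1 of 3 probe sets.

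The angiopoietin receptor Tek showed no separation between groups. It read 8.91, 8.78 and 9.21 in combination muscles, 9.20, 8.71 and 9.39 in dexamethasone muscles and 9.27, 8.90 and 9.41 in vehicle muscles. In every group the array of batch B was the lowest. Dexamethasone differed from vehicle by -0.09 ± 0.24 (SE), and the combination differed from dexamethasone by -0.13 ± 0.24 (limma adjusted p = 0.908), with an interval of -0.68 to 0.41.

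Tie1, the partner of Tek, read 7.28, 7.80 and 8.07 in combination muscles, 7.47, 7.19 and 7.90 in dexamethasone muscles and 7.98, 8.07 and 8.31 in vehicle muscles. The dexamethasone arrays were below the vehicle arrays, narrowly for replicate 3, and combination replicate 3 overlapped vehicle. The dexamethasone minus vehicle difference was -0.60 ± 0.26 (SE), with -0.68 within batch A and -0.89 within batch B. The combination differed from dexamethasone by 0.20 ± 0.26 (limma adjusted p = 0.866) and from vehicle by -0.41 ± 0.26 (limma adjusted p = 0.863).

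Among the surface and junction genes, Emcn was lower than in vehicle and Pecam1 overlapped vehicle. Emcn read 8.70, 8.56 and 8.65 in combination muscles, 8.38, 8.31 and 8.76 in dexamethasone muscles and 9.05, 9.35 and 9.15 in vehicle muscles. Both treated groups lay wholly below vehicle and overlapped each other, with the dexamethasone array of batch C the highest of the treated arrays. The means were 8.48 ± 0.24 in dexamethasone muscles and 9.18 ± 0.15 in vehicle muscles (SD, n = 3 each), a difference of -0.70 ± 0.19 (SE), or 1.62-fold lower, with -0.72 within batch A and -1.04 within batch B. The combination differed from dexamethasone by 0.15 ± 0.19 (limma adjusted p = 0.851). It was 1.46-fold lower than vehicle, at -0.55 ± 0.19 (limma adjusted p = 0.802, unadjusted p = 0.0174).

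Pecam1, the widely used marker of all endothelium, read 8.54, 8.14 and 8.26 in combination muscles, 8.84, 8.43 and 8.48 in dexamethasone muscles and 8.58, 8.60 and 8.51 in vehicle muscles. The dexamethasone arrays lay on both sides of the vehicle arrays. The difference between dexamethasone and vehicle was 0.02 ± 0.19 (SE), with 0.29 within batch A and -0.17 within batch B. The combination differed from dexamethasone by -0.27 ± 0.19 (limma adjusted p = 0.680), with an interval of -0.70 to 0.16, and was lower than dexamethasone in each batch, at -0.30, -0.29 and -0.22.

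Vwf was the most scattered of the 9 genes within the vehicle group. It read 6.67, 7.35 and 7.65 in combination muscles, 7.50, 6.50 and 7.89 in dexamethasone muscles and 8.55, 7.09 and 8.17 in vehicle muscles. All groups overlapped. Dexamethasone differed from vehicle by -0.63 ± 0.47 (SE), and the combination differed from dexamethasone by -0.07 ± 0.47 (limma adjusted p = 0.977), with an interval of -1.12 to 0.97. Differences of about 1 log2 unit in either direction were thus not excluded.

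**Figure D2:**
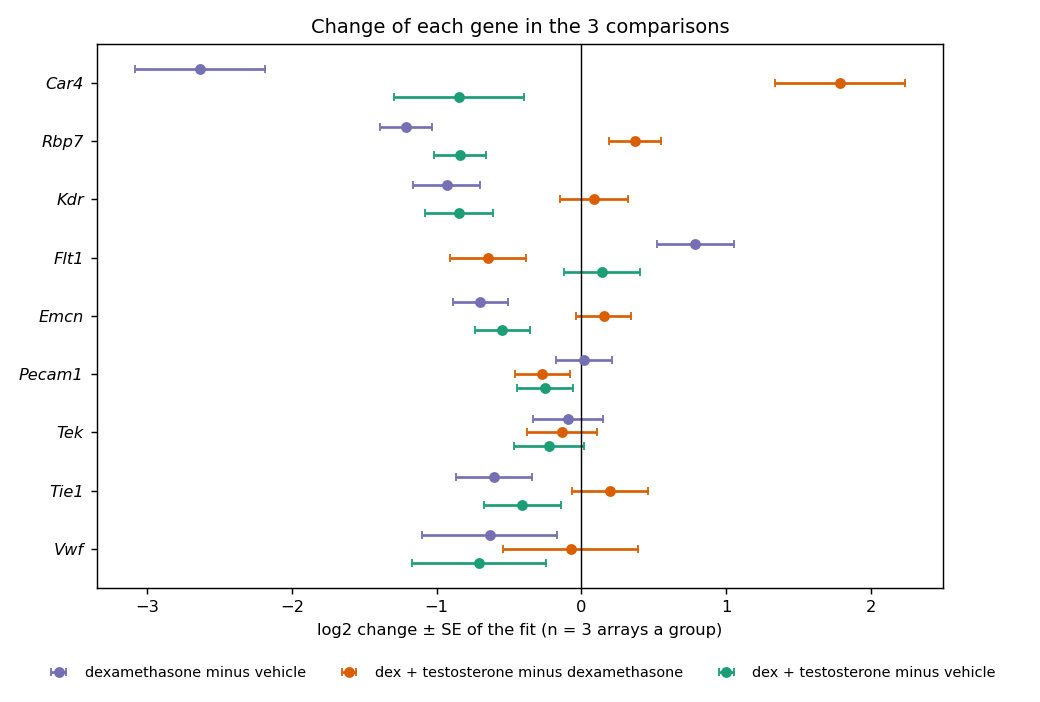
Log2 differences of the brightest probe set of each gene in the 3 comparisons, with bars of 1 standard error from the limma fit and genes down the page. Car4 has the largest difference in dexamethasone minus vehicle (-2.64) and in combination minus dexamethasone (1.79), and in combination minus vehicle the differences are -0.85 for Car4, -0.84 for Rbp7, -0.85 for Kdr, -0.71 for Vwf, -0.55 for Emcn and -0.41 for Tie1, none of which passed.

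Over the 11 tested probe sets, 8 were lower with dexamethasone than with vehicle, with a median difference of -0.63, whereas 48.8% of the 18625 probe sets tested were lower and their median was 0.01. The 11 hold 3 probe sets of Flt1, and by the brightest probe set of each gene 7 of 9 were lower. As a count only, 2 of the 11 (Car4 and Rbp7) lay past the adjusted threshold in the lower direction, beside 0.483% of all tested, and 0 of the 11 with any 1 of vehicle replicates 1, 2 or 3, dexamethasone replicates 1 or 2 or combination replicate 2 left out. The dexamethasone arrays were wholly below the vehicle arrays for 5 probe sets (Car4, Rbp7, Kdr, Emcn and Tie1), as for 10.4% of all tested, and wholly above for 1 (Flt1), as for 12.5%. The genes were chosen with this comparison known, so these counts are no test of them and nothing is read from them.

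Testosterone added to dexamethasone moved no gene of the list past the threshold. In combination minus dexamethasone, 0 of the 11 probe sets passed by limma, as did 0.113% of all tested, and 2 had an unadjusted p under 0.05 (Car4, higher, and Flt1, lower), against 11.0% of all tested. The median over the 11 was 0.05. The arrays were wholly higher for 2 probe sets (Car4 and Rbp7), against 7.24% of all tested, and wholly lower for 0, against 7.35%.

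In combination minus vehicle, 0 of the 11 passed by limma, as did 0% of all tested, and 3 had an unadjusted p under 0.05 (Rbp7, Kdr and Emcn), against 6.12% of all tested. Here 10 of the 11 differences were below 0, against 47.8% of all tested, with a median of -0.55 against 0.02. The 11 hold 3 probe sets of Flt1, and by the brightest probe set of each gene 8 of 9 were below 0. The arrays were wholly lower for 4 probe sets (Car4, Rbp7, Kdr and Emcn), against 5.79% of all tested, and wholly higher for 0, against 7.53%. The vehicle arrays are shared with the comparison in which Car4 was known to be low. Without quantile normalization, with arrays brought only to a common median, the median of all tested probe sets moved to 0.20 in dexamethasone minus vehicle and 0.19 in combination minus vehicle. On that scale Tek, at 0.27 and 0.07, was the only one of the 9 genes to change sign in these comparisons. Kdr was then at -0.58 and Emcn at -0.37 in dexamethasone minus vehicle, and at -0.56 and -0.28 in combination minus vehicle.

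Averaged over the brightest probe sets of the 9 genes, the signal was 7.95, 8.02 and 8.0 in combination muscles, 7.73, 7.63 and 8.12 in dexamethasone muscles and 8.58, 8.35 and 8.55 in vehicle muscles. Every treated array was below every vehicle array on this mean. It includes Car4, which was listed because its signal was known to be low in these dexamethasone arrays. The separation is therefore a description and no test of the list. The mean hides the split within the list, in which Pecam1, Tek and Vwf overlapped vehicle and Flt1 ran the other way.

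The 9 genes did not vary as 1 block across arrays. Car4 correlated with Emcn at 0.87, with Rbp7 at 0.84, with Tie1 at 0.68 and with Kdr at 0.65, and with Flt1 at -0.80 (Pearson r over 9 arrays, which share group and batch). Rbp7 correlated with Kdr at 0.92 and with Emcn at 0.89. Tek and Vwf formed another pair, at 0.84, and Tie1 correlated with Vwf at 0.74 and with both Emcn and Tek at 0.75 and 0.60. Pecam1 stood alone, with correlations between -0.19 and 0.32. These values describe 9 arrays in 3 groups, so a correlation carries the group differences above.

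**Figure D3:**
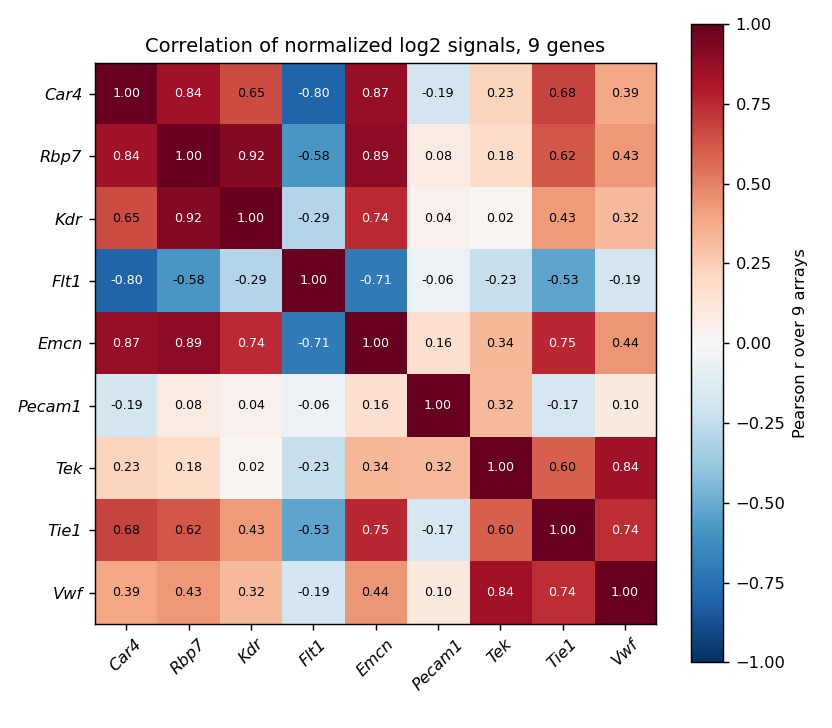
Pearson correlations of normalized log2 signals over the 9 arrays between the brightest probe sets of the 9 genes, coloured on a scale of -1 to 1. Car4, Rbp7, Kdr and Emcn correlate with one another at 0.65 to 0.92, Tek and Vwf at 0.84, and Flt1 is negative with all the others.

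Of 10427 other genes with a tested probe set, the 8 whose signal most resembled that of Car4 across the 9 arrays were Smoc2, Psmb9, Neu2, Afap1l1, Adam17, Gng11, Sema3c and Fem1c, at r of 0.97 to 0.98. Smoc2 encodes a secreted matrix protein. It read 11.07, 10.36 and 10.50 in combination muscles, 8.10, 7.74 and 9.84 in dexamethasone muscles and 11.43, 11.32 and 11.85 in vehicle muscles. As for Car4, dexamethasone replicate 3 was the highest of its group by a wide gap. The same held for Neu2, a cytosolic sialidase, at 11.20, 10.14 and 10.22 in combination muscles, 7.43, 7.68 and 9.57 in dexamethasone muscles and 10.96, 10.86 and 10.61 in vehicle muscles. All 8 had dexamethasone arrays wholly below vehicle arrays, as for 10.4% of all tested probe sets. Car4 itself had this separation, so it follows largely from how the 8 were chosen. The 8 were picked for their likeness to Car4, and none was on the endothelial lists below. Whether any of them is expressed in endothelium was not examined.

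The lists of other endothelial genes were read through the brightest tested probe set of each gene. Over all tested probe sets, 0.483% passed in the lower direction in dexamethasone minus vehicle and 48.8% were below 0. The lists were chosen with earlier results of these data known, so their counts are a description. In the list of VEGF ligands and receptors other than Kdr and Flt1, 0 of 5 tested genes passed in any comparison. All 5 were lower with dexamethasone than with vehicle, with a median of -0.52. Vegfa, the main ligand of Kdr and Flt1, differed by -0.52 ± 0.28 (SE; limma adjusted p = 0.423), and Vegfc, a ligand of the lymphatic receptor, by -0.83 ± 0.18 (limma adjusted p = 0.0643). A dimmer Vegfa probe set gave -0.20 ± 0.45 (limma adjusted p = 0.869). In combination minus vehicle the median of these 5 was -0.44.

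Of the 3 tested angiopoietin and TIE partners, 0 passed. Angpt2, which opposes Tek signalling in many settings, differed by -0.64 ± 0.25 between dexamethasone and vehicle (limma adjusted p = 0.257), and the phosphatase Ptprb, which acts on Tek, by 0.32 ± 0.20 (limma adjusted p = 0.479). Angptl4, an inhibitor of lipoprotein lipase that is induced by glucocorticoids, differed by 1.93 ± 0.60 (limma adjusted p = 0.165) and, in combination minus dexamethasone, by -2.06 ± 0.60 (limma adjusted p = 0.24).

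Among 23 tested genes of the endothelial junction and surface, 1 fell with dexamethasone relative to vehicle, beside 0.483% of all tested, and 22 did not pass. Aplnr, the apelin receptor of growing and venous endothelium, read 7.18, 7.00 and 7.49 in combination muscles, 6.81, 6.18 and 7.33 in dexamethasone muscles and 8.40, 8.28 and 8.27 in vehicle muscles. Both treated groups lay below vehicle and overlapped each other. The dexamethasone minus vehicle difference was -1.54 ± 0.28 (limma adjusted p = 0.0415), while a second, dimmer probe set gave -0.68 ± 0.48 (limma adjusted p = 0.552). Of the 23 genes, 19 were below 0, against 48.8% of all tested, with a median of -0.25. Their median was 0.02 in combination minus dexamethasone and -0.30 in combination minus vehicle. The 13 tested endothelial transcription factors gave 0 that passed and a median of -0.28. Their extremes were Sox7, at -1.07 ± 0.24 (limma adjusted p = 0.0744), and Gata2, at 1.02 ± 0.22 (limma adjusted p = 0.0647).

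No other carbonic anhydrase or retinoid binding protein passed in any comparison. Among 6 tested other carbonic anhydrases, the median was -0.05 with dexamethasone relative to vehicle. Car3, the abundant cytosolic carbonic anhydrase of slow muscle fibres, differed by -0.25 ± 0.16 (limma adjusted p = 0.512), and Car14, which is also bound to membranes, by 0.98 ± 0.26 (limma adjusted p = 0.112). Of the retinoid binding proteins other than Rbp7, 2 were tested, Rbp4 at 0.07 ± 0.30 and Crabp1 at -0.27 ± 0.28 for dexamethasone minus vehicle. Among 6 capillary lipid handling genes, 0 passed, with a median of 0.29, and the fatty acid transporter Cd36, which muscle fibres also express, was at 1.42 ± 0.52 (limma adjusted p = 0.228). Among 12 arterial and venous genes, 0 passed, with a median of -0.41, and the arterial gap junction gene Gja4 was at -0.80 ± 0.19 (limma adjusted p = 0.0909). No gene of these endothelial lists passed in combination minus dexamethasone or in combination minus vehicle.

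**Figure D4:**
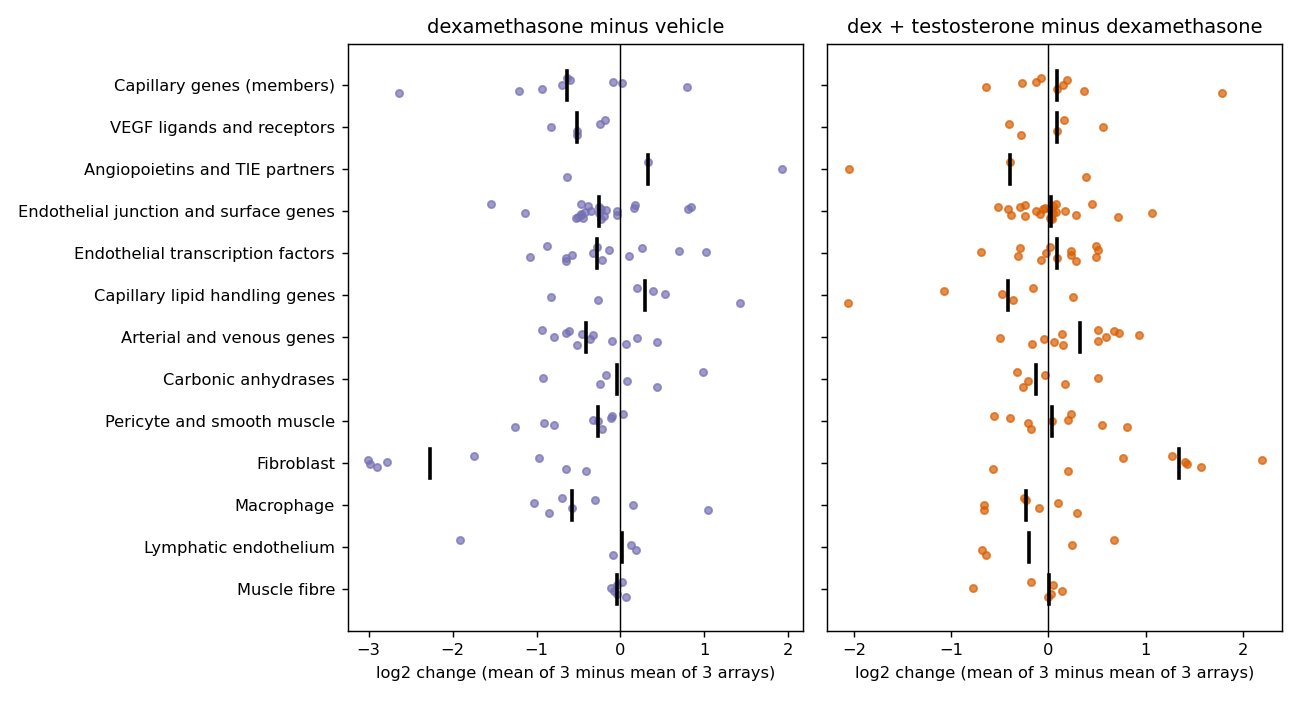
Log2 differences of each gene list, as dexamethasone minus vehicle in the left panel and combination minus dexamethasone in the right, with a point for the brightest tested probe set of each gene and a bar at the list's median. The genes listed with Car4 have medians of -0.63 on the left and 0.09 on the right, and the fibroblast markers lie farthest from 0, at -2.27 and 1.34.

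Of the markers of other cell types in the muscle piece, 1 fibroblast gene passed in dexamethasone minus vehicle. Over all tested probe sets, 0.483% passed in the lower direction and 48.8% were below 0. These lists too were chosen with earlier results known. All 8 fibroblast markers were lower with dexamethasone than with vehicle, with a median of -2.27, and 1 of them fell (Mfap5, a microfibril protein, at -1.75 ± 0.29, limma adjusted p = 0.0338). Their mean signal ran from 10.18 to 11.56 in combination muscles, 8.60 to 10.53 in dexamethasone muscles and 11.35 to 11.84 in vehicle muscles. The 9 pericyte and smooth muscle markers, cells that wrap the vessels, gave 0 that passed, with 8 below 0 and a median of -0.27. Their mean signal was 8.04 to 8.44 in combination, 8.03 to 8.33 in dexamethasone and 8.20 to 9.02 in vehicle muscles. The 7 macrophage markers gave 0 that passed and a median of -0.58, at 6.24 to 7.19 in combination, 6.04 to 7.51 in dexamethasone and 7.04 to 7.20 in vehicle muscles. The 4 lymphatic endothelial markers had a median of 0.02 and ran from -1.92 to 0.19, with 2 below 0 and 0 that passed. The 6 muscle fibre genes had a median of -0.04. Erythroid, platelet and adipocyte markers, with 2, 3 and 3 genes tested, gave 0 that passed and medians of -1.11, -0.48 and -0.01. The part of these marker levels in the lower signals of Car4, Rbp7, Kdr and Emcn was not tested.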

How the data were processed

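The 9 arrays hold 31099 probe sets, and per the labels' protocols labelling followed the standard procedure of the array maker. The deposited values are linear intensities, 1 signal per probe set and array. The signal algorithm is not given in the sources used here. A mean trimmed by 2% at either end was 500 in 5 arrays and 113.3 to 206.8 in the other 4, which were thus deposited on another scale.

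The 57 control probe sets were left out. To each intensity 16 was added as a pseudocount before taking log2, and the arrays were then quantile normalized (limma 3.58.1, R 4.3.3), so fold changes of dim genes are understated. After a filter at the 40th percentile of mean signal, 18625 probe sets were tested. The limma model (lmFit, eBayes) had 1 mean per group over the 9 arrays, and p-values, all two-sided, were Benjamini-Hochberg adjusted over all 18625 in each comparison, at a threshold of 0.05. The code was tested on simulated data. Symbols came from the platform annotation, updated by gene ID to GRCr8: 20826 probe sets had 1 symbol, 436 several and 9780 none. A gene with several probe sets is described by its brightest. The others are given for Car4, Kdr, Flt1, Aplnr and Vegfa. Dimmer probe sets of the remaining list genes are not given, and some differ from the brightest. The rule for naming other genes was the 8 most correlated with Car4 over the arrays, every list gene past the threshold and, in a list without one, up to 2 with the lowest unadjusted p. The genes of the list, the other lists and the tests were chosen with earlier results of these data known. Vegfa, Angpt2, Ptprb, Car3 and Gja4, among other list genes that did not pass, were picked for their role, with their values known, rather than by that rule. Of these, Vegfa and Angpt2 would also have met the rule in dexamethasone minus vehicle. The technical batches were also defined after values were seen, from array scaling and spiked controls. Each array is 1 animal per the labels, and the small number of animals limits the precision.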

Additional observations from a re-analysis of the deposited data

How the results depend on the processing

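The differences of Car4 and Rbp7 against vehicle kept their sign under all alternatives other than the dimmer Car4 probe set, at -3.71 to -1.65 for Car4 and -1.39 to -0.89 for Rbp7 in dexamethasone minus vehicle (the Car4 ends being pseudocounts of 1 and 64, which gave 2.75 and 1.00 in combination minus dexamethasone), while their calls did not always hold. Main counts of probe sets passing were 196 for dexamethasone minus vehicle (2 from the genes described), 21 for combination minus dexamethasone (0) and 0 for combination minus vehicle (0), and the last stayed at 0 and 0 throughout. In the same order for the first pair of comparisons, a filter at the 60th percentile gave 469 (1) and 83 (0), and it left the tested Car4 probe set out. No filter gave 48 (0) and 0 (0), a pseudocount of 1 gave 54 (1) and 5 (0), one of 64 gave 414 (2) and 102 (0), and an intensity trend with robust variance gave 510 (3) and 149 (0). A common median in place of quantile normalization gave 130 (1) and 6 (0), with 17.7% of the calls against vehicle lower, compared with 45.9%. A block for technical batch gave 179 (2) and 22 (0), and leaving out batch C gave 444 (2) and 0 (0). Leaving out 1 array at a time gave 1 to 333 calls with 0 to 2 of the genes described against vehicle, and 0 to 68 with 0 to 1 in combination minus dexamethasone. The 333 and 68 came without dexamethasone replicate 3, the only array whose removal let Car4 pass in the second comparison. Neither Car4 nor Rbp7 passed against vehicle without any 1 of vehicle replicates 1 to 3, dexamethasone replicates 1 or 2, or combination replicate 2. The cause was not tested. The genes were chosen with the comparison against vehicle known, so their calls in it are a description and no test.

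Same-numbered arrays did not deviate together in every pair (r from -0.20 to 0.59), so the numbers were not taken to pair the animals. A fit with the replicate number as a block gave 13 (0) and 0 (0), and not every array correlated best with its own number.

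Sign changes touched small differences or other probe sets. Against vehicle, the dexamethasone difference of Tek was 0.27 with a common median and ranged from -0.24 to 0.10 without 1 array, that of Pecam1 from -0.11 to 0.097, and the dimmer probe sets gave 0.32 for Car4, 0.23 for Kdr and -0.68 for Flt1. In combination minus dexamethasone, leaving out 1 array gave Vwf -0.47 to 0.22, Kdr -0.089 to 0.26 and Tek -0.33 to 0.012, Vwf was 0.010 without batch C, and dimmer probe sets gave -0.23 for Kdr and 0.050 for Flt1. In combination minus vehicle, Tek was 0.068 with a common median, Flt1 was -0.13 to 0.31 without 1 array, and dimmer probe sets gave 0.78 for Car4 and -0.63 and -0.21 for Flt1. With 3 animals a group, small differences could not be resolved, and signals near the bottom of the scale, such as Car4 with dexamethasone, depend on the pseudocount.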
